A study of Mus musculus with 19 samples.

Results

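The sites described here are the cytidines (C sites) in the 13 messenger RNAs encoded by mouse mitochondrial DNA. They were taken from a deposited HAC-seq table as the entries on chromosome MT whose gene is one of mt-Nd1 to mt-Nd6, mt-Nd4l, mt-Cytb, mt-Co1 to mt-Co3, mt-Atp6 or mt-Atp8, with no minimum on any value. They numbered 2349 of 118890 distinct sites. Cells were neural progenitors from the cerebral cortex of mice at embryonic day 17.5, grown in vitro on Matrigel in medium with B27, N2, bFGF and EGF, and were either Mettl8-cKO (a conditional knockout, called cKO) or wild type (WT). Neither the Cre driver nor the deleted exons are named in the labels. HAC-seq was made from 3 cKO and 4 WT samples with 8000 ng of RNA, and RNA-seq by the SMART-seq2 method from 6 cKO and 6 WT samples with 300 ng. The purpose was to map the 3-methylcytidine (m3C) that depends on Mettl8 and to profile expression in its absence. Whether replicates were separate cultures or animals is not stated in the labels, and p-values therefore cover only the variation among these libraries, part of which may be technical.

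Mettl8 encodes a methyltransferase of mitochondria that makes m3C in the anticodon loop of certain mitochondrial tRNAs. In HAC-seq (hydrazine-aniline cleavage sequencing) hydrazine attacks m3C and aniline breaks the strand there, which leaves reads that begin just downstream of the modified base. Mitochondrial DNA is copied into long transcripts that hold ribosomal RNAs, tRNAs and mRNAs in a row, and excision of the tRNAs releases the mRNAs, which carry almost no untranslated sequence and encode core subunits of the respiratory chain and of ATP synthase. The cleavage ratio is the number of reads that start 1 base downstream of a C divided by all reads at the site, called coverage, and is given as a percentage. No untreated library is among the samples, so a read start at cleaved m3C cannot be told apart from a read start at another RNA break or end.

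Over the whole HAC-seq table, summed site coverage ran from 141870409 to 241671149 in the cKO libraries and from 170903471 to 243732230 in the WT libraries. Known Mettl8 substrates, read in the same way, served as a scale. The site of highest WT ratio in mt-Tt (mitochondrial tRNA-Thr) had ratios of 2.11%, 1.70% and 2.51% in cKO and 93.7%, 94.6%, 94.7% and 94.7% in WT. The site of highest WT ratio in mt-Ts1 (mitochondrial tRNA-Ser) had 0% in each cKO library and 2.92%, 2.92%, 3.13% and 1.25% in WT. In RNA-seq all 9 neural progenitor markers were above 1 CPM, as were 4 of 4 astrocyte, 5 of 5 oligodendrocyte lineage, 3 of 4 neuronal, 2 of 3 endothelial, 1 of 4 microglial and 0 of 4 fibroblast markers. Summed levels were 333 to 1269 CPM in cKO and 563 to 1166 CPM in WT for astrocyte markers, and 350 to 596 CPM in cKO and 381 to 604 CPM in WT for the oligodendrocyte lineage; their part in the results was not tested. Mettl8 itself averaged 72.5 ± 7.96 CPM in cKO and 46.7 ± 10.7 CPM in WT (SD, n = 6 each); this count covers the whole gene and not the deleted exons alone, so it does not check the knockout.

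The sites covered all 13 mRNAs but lay almost entirely on 1 strand. Of the 2349 sites, 2329 were on the plus strand and 20 on the minus strand, all 20 in mt-Nd6, the complex I subunit encoded on the opposite strand to the other mRNAs. None (0) lay antisense to its gene. mt-Co1 had the most sites (358), followed by mt-Nd5 (350), mt-Nd4 (271), mt-Cytb (266), mt-Nd2 (233), mt-Nd1 (189), mt-Co2 (168), mt-Co3 (159), mt-Atp6 (145), mt-Nd4l (82), mt-Nd3 (54) and mt-Atp8 (42). Per 100 nucleotides of gene in RefSeq (GRCm38.p6), the plus-strand mRNAs had 15.5 (mt-Nd3) to 27.6 (mt-Nd4l) sites and mt-Nd6 had 3.85. A further 11 sites lay where mt-Atp8 and mt-Atp6 overlap and 1 where mt-Nd4l and mt-Nd4 overlap, and these were not counted for either gene.

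Site coverage ran from 18 to 16368 reads, and 2300 of the 2349 sites had at least 50 reads in each of the 7 libraries. The authors kept a site only where more than 1 read start was seen in every WT library. That choice used WT values and not cKO values, so the list holds no site that was cleaved only in cKO. Members are not independent of each other, because neighbouring sites share reads and the mRNAs share precursors. Read starts and coverages at 223 sites were equal in every library to those of a site in a pseudogene on chromosome 1 (61 in mt-Co3, 48 in mt-Nd4, 44 in mt-Nd4l, 24 in mt-Atp6, 22 in mt-Nd3, 13 in mt-Co2 and 11 in mt-Co1), so the 2 origins of those reads cannot be told apart.

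Cleavage was low at most of these sites in both genotypes. Over the 2300 sites, the mean ratio of a library was 2.34%, 1.87% and 1.94% in cKO and 1.83%, 1.89%, 1.84% and 1.95% in WT. This gave 2.05% ± 0.250 in cKO (SD, n = 3) and 1.88% ± 0.0537 in WT (SD, n = 4), a difference of 0.171 percentage points that was smaller than the spread among cKO libraries. cKO replicate 1 was the highest of the 7 libraries, while cKO replicates 2 and 3 lay within the WT range. Without cKO replicate 1 the difference over the same 2300 sites was 0.0282 points.

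The median site mean was 1.55% in cKO and 1.42% in WT, and the quartiles were 0.803% and 2.65% in cKO and 0.799% and 2.30% in WT. A mean above 2% was reached by 885 sites in cKO and 733 in WT, a mean above 5% by 156 in cKO and 105 in WT, and a mean above 10% by 20 in cKO and 22 in WT. In each group 1 site was above 20%. No site (0) lacked read starts in all 3 cKO libraries. At least 1 cKO library had none at 232 sites, whose WT means were at most 4.07%.

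**Figure D1:**
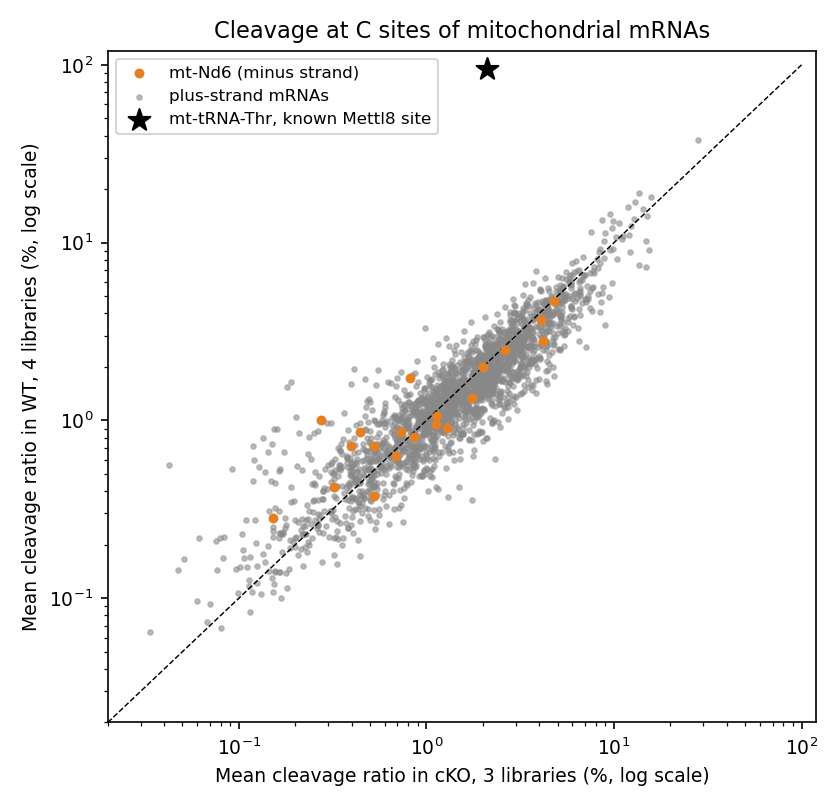
Mean cleavage ratio of each mitochondrial mRNA C site with coverage of at least 50 in all libraries (2300 sites) in cKO (horizontal, mean of 3 libraries) and WT (vertical, mean of 4 libraries), both in percent on log scales; the dashed line marks equal ratios. The mRNA sites, with the 20 of mt-Nd6 in orange, lie along the line, whereas the mt-tRNA-Thr site (star) is at 2.10% in cKO and 94.4% in WT.

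More sites were higher in cKO than lower. Of the 2300 sites, 1341 (58.3%) were higher in cKO and 959 lower, with a median difference of 0.0732 points; of all 87065 sites of that coverage, 52.1% were higher, with a median difference of 0.0277 points. Without cKO replicate 1, 1237 of the 2300 were higher, with a median difference of 0.0320 points. The share of all sites higher without that library was not computed. The cKO and WT libraries did not overlap at 146 mRNA sites higher in cKO, or 6.35% of them, against 4.04% of all 87065 sites. They did not overlap at 86 mRNA sites lower in cKO, or 3.74% of them, against 4.28% of all sites.

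Gene means spanned a wider range than the difference between genotypes within any gene. mt-Nd3, a complex I subunit of the membrane arm, had the highest mean: 3.90%, 2.83% and 2.99% in cKO and 2.86%, 3.01%, 2.76% and 3.19% in WT over 41 sites. mt-Nd6 had the lowest over its 20 sites, with 1.23%, 1.47% and 1.61% in cKO and 1.49%, 1.33%, 1.5% and 1.33% in WT. The libraries of the 2 genotypes overlapped for both genes. The other complex I mRNAs lay between. mt-Nd5 averaged 2.22% ± 0.275 in cKO and 2.06% ± 0.0664 in WT, and mt-Nd1 averaged 2.21% ± 0.298 in cKO and 2.02% ± 0.0827 in WT. Means for mt-Nd2 were 2.05% ± 0.316 in cKO and 1.84% ± 0.0554 in WT, and for mt-Nd4 1.81% ± 0.164 in cKO and 1.76% ± 0.0189 in WT. mt-Nd4l averaged 1.54% ± 0.124 in cKO and 1.48% ± 0.0670 in WT (SD, n = 3 cKO and n = 4 WT throughout).

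mt-Cytb, the heme-bearing subunit of complex III, had 2.5%, 2.02% and 2.12% in cKO and 1.97%, 2.06%, 2.01% and 2.09% in WT. Among the mRNAs of complex IV (cytochrome c oxidase), mt-Co3 averaged 2.49% ± 0.363 in cKO and 2.19% ± 0.0899 in WT. The catalytic subunit mt-Co1 averaged 1.89% ± 0.227 in cKO and 1.70% ± 0.0534 in WT, and mt-Co2, which takes electrons from cytochrome c, averaged 1.84% ± 0.242 in cKO and 1.72% ± 0.0709 in WT (SD, n = 3 and n = 4). For ATP synthase (complex V), mt-Atp8 averaged 1.98% ± 0.420 in cKO and 1.74% ± 0.0706 in WT, and mt-Atp6, part of the proton channel, averaged 1.83% ± 0.239 in cKO and 1.58% ± 0.0380 in WT. In the 12 plus-strand mRNAs cKO replicate 1 was the highest library, and in mt-Nd6 it was the lowest. The mean over the sites of the mitochondrial ribosomal RNAs, the nearest other class, was 3.69% ± 0.821 in cKO and 4.01% ± 0.326 in WT.

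**Figure D2:**
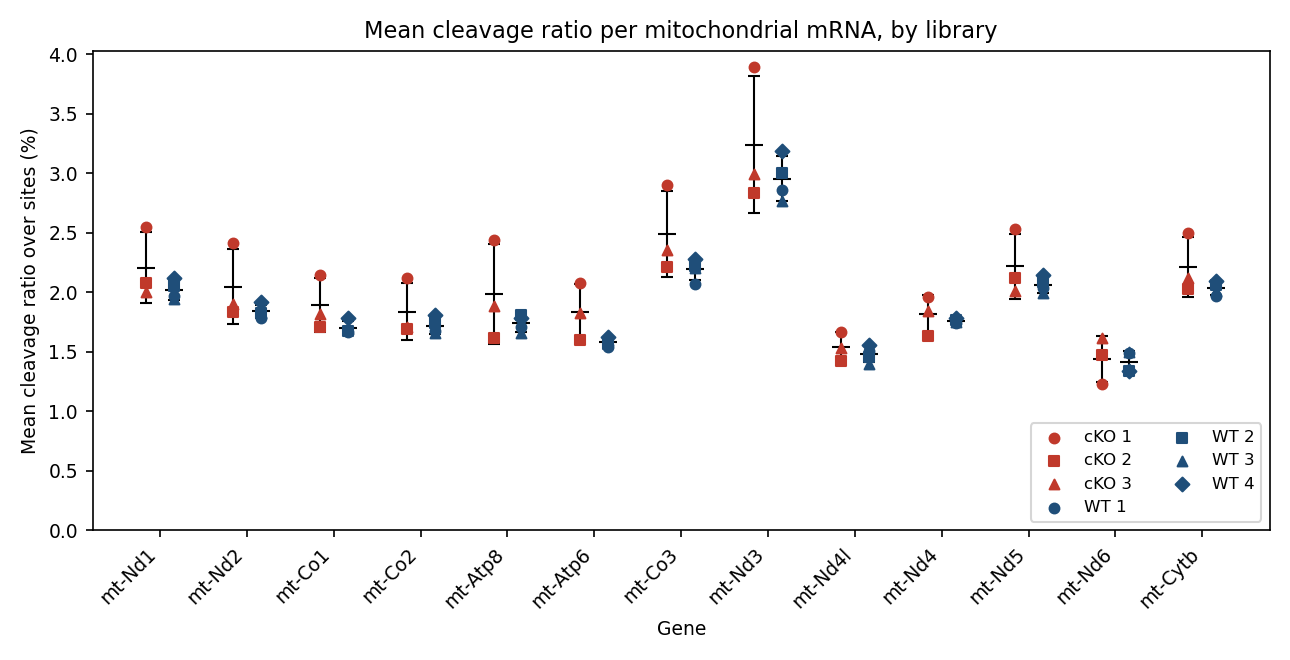
Mean cleavage ratio (percent) over the C sites of each mitochondrial mRNA in each HAC-seq library, cKO in red left of WT in blue; horizontal marks and bars are mean and SD (n = 3 cKO, n = 4 WT). cKO replicate 1 (red circle) is the highest library in every gene but mt-Nd6, and the other 2 cKO libraries lie near the WT libraries.

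The most cleaved site was nucleotide 1464 of mt-Nd5 (GRCm38.p6, chromosome MT, position 13205, plus strand, within the single coding exon). Its ratio was 32.4%, 41.7% and 9.59% in cKO and 38.8%, 36.0%, 33.6% and 43.5% in WT, at coverages of 210 to 1246. Only cKO replicate 3 stood apart; its exact Clopper-Pearson 95% interval was 7.08% to 12.6%. The difference of the means was -10.1 points, and -0.97 points without that library (exact permutation p = 0.286, two-sided, over all 7 libraries). Intervals and floors cover counting error only.

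The second was nucleotide 322 of mt-Co3 (position 8928), the deepest of the 10 highest sites. It had 18.5%, 18.0% and 10.6% in cKO and 19.0%, 19.0%, 16.9% and 17.7% in WT at coverages of 2340 to 6791. Again cKO replicate 3 alone was below the rest, with an interval of 9.63% to 11.6%, and the difference was -2.43 points with all libraries and 0.138 points without it. mt-Nd5 held 2 pairs of adjacent cytidines among the 10 highest sites, at nucleotides 794 and 795 (positions 12535 and 12536) and 1316 and 1317 (positions 13057 and 13058). At nucleotide 794 the ratio was 8.82%, 23.3% and 8.55% in cKO and 19.5%, 15%, 17.4% and 23.9% in WT. Coverage was 68 to 272 and the groups overlapped. Its neighbour, nucleotide 795, averaged 14.2% ± 7.20 in cKO and 15.4% ± 1.55 in WT (SD, n = 3 and n = 4).

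Both pairs had few reads in cKO. At nucleotide 1316 the ratio was 16.7%, 18.9% and 3.39% in cKO and 18.3%, 18.3%, 8.40% and 22.8% in WT, with as few as 54 reads in a library. Its neighbour, nucleotide 1317, averaged 12.3% ± 2.63 in cKO and 12.5% ± 2.37 in WT (SD, n = 3 and n = 4). Among the mRNAs of the other complex I subunits, nucleotide 280 of mt-Nd3 (position 9738) averaged 15.05% ± 2.10 in cKO and 14.1% ± 1.99 in WT, and nucleotide 34 of mt-Nd1 (position 2784) had 11.6%, 17.4% and 6.49% in cKO and 14.4%, 16.1%, 14.1% and 18.5% in WT. In complex IV, nucleotide 337 of mt-Co1 (position 5664) averaged 12.7% ± 1.36 in cKO and 13.6% ± 0.400 in WT, and nucleotide 10 of mt-Co2 (position 7022) had 13.8%, 10.4% and 4.51% in cKO and 11.9%, 16.4%, 12.2% and 17.6% in WT. At 8 of the 10 highest sites cKO replicate 3 was the lowest of the 7 libraries.

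**Figure D3:**
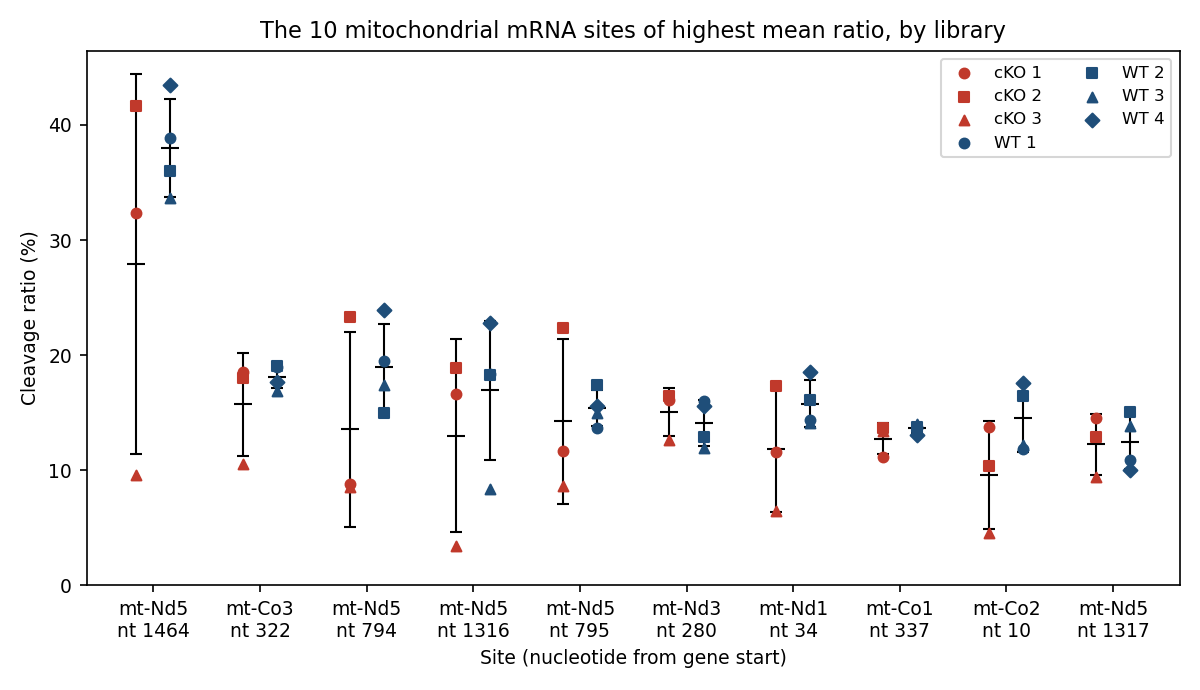
Cleavage ratio (percent) at the 10 mitochondrial mRNA sites of highest mean ratio in each HAC-seq library, cKO in red left of WT in blue; horizontal marks and bars are mean and SD (n = 3 cKO, n = 4 WT). cKO replicate 3 (red triangle) is the lowest library at 8 of the 10 sites, for example 9.59% at nucleotide 1464 of mt-Nd5, where the other 6 libraries range from 32.4% to 43.5%.

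The remaining mRNAs had lower peaks. The highest site of mt-Cytb, nucleotide 797 (position 14941), averaged 8.65% ± 3.02 in cKO and 13.4% ± 1.29 in WT. The highest site of mt-Nd2, nucleotide 653, averaged 10.4% ± 2.27 in cKO and 8.10% ± 0.995 in WT, that of mt-Nd4, nucleotide 938, 9.72% ± 4.21 in cKO and 5.96% ± 0.555 in WT, and that of mt-Atp6, nucleotide 348, 6.62% ± 2.38 in cKO and 5.36% ± 0.520 in WT. mt-Nd4l, mt-Nd6 and mt-Atp8 had no site with a mean of 5% over the 7 libraries; the highest site averaged 4.59% ± 2.11 in cKO and 4.98% ± 1.5 in WT for mt-Nd4l, 4.80% ± 1.92 in cKO and 4.67% ± 1.05 in WT for mt-Nd6, and 4.20% ± 2.62 in cKO and 2.48% ± 0.313 in WT for mt-Atp8 (SD, n = 3 cKO and n = 4 WT).

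**Figure D4:**
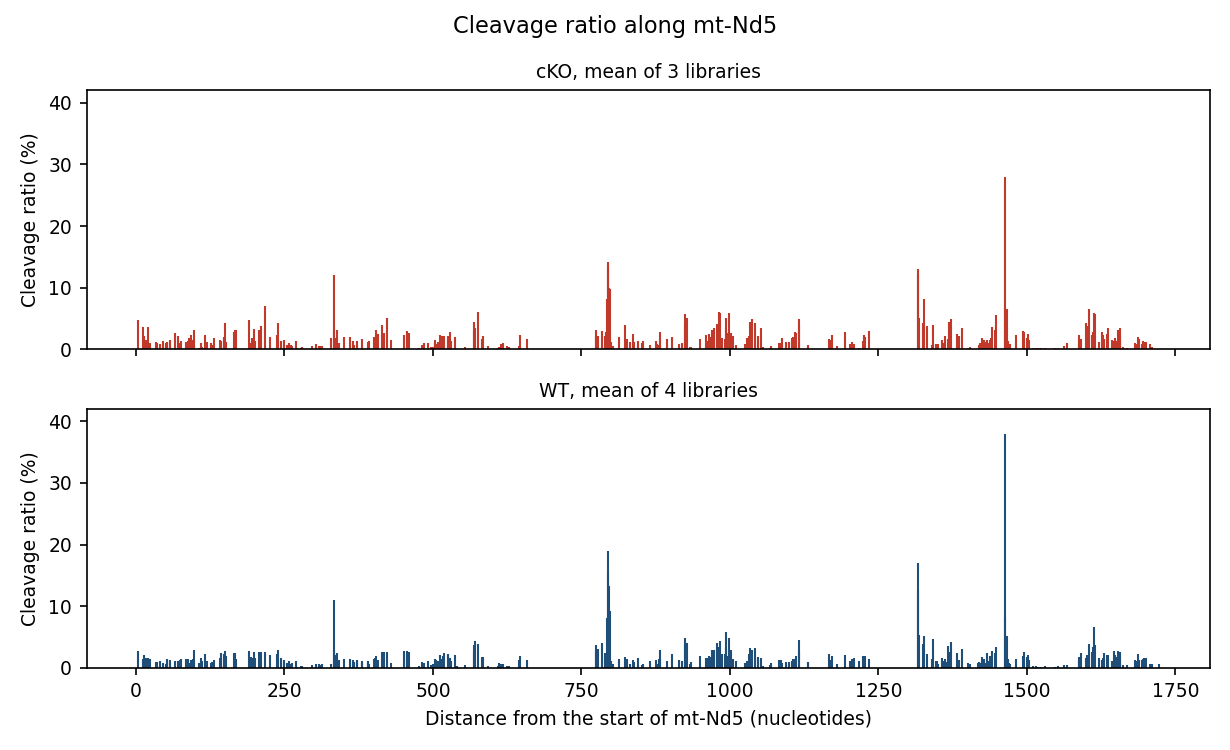
Mean cleavage ratio (percent) of each C site along mt-Nd5, by distance from the gene start in nucleotides, in cKO (upper panel, mean of 3 libraries) and WT (lower panel, mean of 4 libraries). The same positions stand out in both panels, led by nucleotide 1464 with a mean of 27.9% in cKO and 38.0% in WT.

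No single mRNA site passed the test between genotypes. Read starts out of coverage were compared by a quasi-binomial model with dispersions squeezed by limma, over all 13240 sites of the table with coverage of at least 50 in every library and a mean ratio of at least 0.05 (5%). Of these, 122 were mRNA sites, and 0 had a Benjamini-Hochberg adjusted p under 0.05, against 0.00755% of all tested sites called lower in cKO and 0% called higher. The smallest adjusted p among the 122 was 0.518 in this model. At an unadjusted p under 0.05, 6 of the 122 were lower (4.92%, against 2.02% of all tested sites) and 16 higher (13.1%, against 6.62% of all tested sites), but this excess of higher sites was not seen with limma on arcsine-transformed ratios. There 3 were lower (2.46%, against 1.9% of all tested sites) and 5 higher (4.10%, against 5.97% of all tested sites), with 0 called.

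With no minimum on the ratio, 2300 mRNA sites were tested and 0 were called, against 0.00345% of all 87065 sites called lower and 0% called higher. Unadjusted, 53 were lower (2.30%, against 2.56% of all tested sites) and 188 higher (8.17%, against 4.78% of all tested sites). The smallest p were at mt-Co1 nucleotides 1282, 1046, 1223 and 1266, all higher in cKO. Their unadjusted quasi-binomial p was 0.000208 to 0.000661, and adjusted p 0.258 to 0.284. Nucleotide 1282 had 2.54%, 1.17% and 2.21% in cKO and 0.811%, 1.06%, 0.881% and 0.685% in WT. Without cKO replicate 2, 12 mRNA sites were called higher in this wider test (7 in mt-Co1, 3 in mt-Atp6, 1 in mt-Co2 and 1 in mt-Cytb), or 0.522% of them, against 0.334% of all sites in the same fit. Without cKO replicate 1, 1 site in mt-Co1 was called higher (0.0426%, against 0.168% of all sites). Leaving out any other library gave 0. The authors' deposited table gives a p-value under 0.05 for 115 of the 2349 sites (4.90%), 57 higher and 58 lower, against 6.01% of all sites, and 0 passed Benjamini-Hochberg adjustment.

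Among the 122 sites tested with the ratio minimum, those of smallest p lower in cKO were in mRNAs of complexes I, III and IV. None of them was called. mt-Cytb nucleotide 797 had 10.6%, 10.2% and 5.16% in cKO and 13.3%, 12.8%, 12.2% and 15.2% in WT. The groups did not overlap there (exact permutation p = 0.0286, two-sided, the smallest that the 35 splits of 7 libraries allow, and 0.143 adjusted over the 25 sites named). mt-Cytb nucleotide 1021 (position 15165), read at 902 to 4937 reads, had 5.54%, 6.39% and 5.89% in cKO and 7.29%, 8.04%, 6.83% and 8.41% in WT. Its groups did not overlap either (exact permutation p = 0.0571, two-sided). mt-Nd3 nucleotide 127, mt-Nd1 nucleotide 655 and mt-Co2 nucleotide 10 differed by -3.90, -3.08 and -4.98 points and had overlapping groups. The quasi-binomial adjusted p with limma's dispersions was 0.575 for each of these 5 sites. They were picked for small p from the same ratios, so their permutation p values are not separate support.

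Among the 122 sites tested with the ratio minimum, those of smallest p higher in cKO were in mt-Co3, mt-Cytb, mt-Nd2 and mt-Atp6. mt-Co3 nucleotide 156 (position 8762) had 20.7%, 11.5% and 14.2% in cKO and 7.06%, 9.80%, 9.04% and 10.7% in WT. Nucleotide 153, 3 bases upstream, had 10.7%, 6.32% and 8.68% in cKO and 4.28%, 4.15%, 5.28% and 4.84% in WT. Neither overlapped between groups, and at both cKO replicate 1 was the highest library.

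Further cytidines close by, named after their values were seen, behaved unevenly. mt-Co3 nucleotide 166 (position 8772) had 25.4%, 7.09% and 12.2% in cKO and 6.51%, 7.0%, 7.90% and 7.74% in WT, so that only cKO replicates 1 and 3 were above all WT libraries. mt-Co3 nucleotide 154 had 7.56%, 2.99% and 9.33% in cKO and 4.67%, 6.64%, 6.19% and 4.87% in WT, with cKO replicate 2 the lowest of all. These sites share reads and are not separate observations.

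Elsewhere the pattern was similar. mt-Cytb nucleotide 964 (position 15108) had 12.6%, 4.72% and 8.06% in cKO and 3.61%, 4.23%, 3.81% and 4.55% in WT at 706 to 3658 reads, and cKO replicate 2 was nearest to the WT libraries. mt-Nd2 nucleotide 135 had 7.77%, 6.36% and 8.33% in cKO and 3.61%, 3.91%, 4.58% and 5.15% in WT, the most even of the 5. mt-Atp6 nucleotide 489 had 11.4%, 3.85% and 7.63% in cKO and 4.78%, 3.21%, 4.51% and 4.07% in WT, with overlapping groups. The quasi-binomial adjusted p values of these 5 sites, with limma's dispersions, were 0.518 to 0.575. The exact permutation p was 0.0286 at each except mt-Atp6 nucleotide 489 (0.114), all two-sided. Adjusted over the 25 sites named, the permutation p was 0.143, and 0.286 at mt-Atp6 nucleotide 489. These sites too were picked for small p from the same ratios, so their permutation p values are not separate support.

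The cKO libraries differed among themselves more than the WT libraries did. Over the 122 sites of at least 5%, the mean ratio of a library was 9.24%, 7.65% and 6.72% in cKO and 7.32%, 7.61%, 6.87% and 8.04% in WT. cKO replicate 1 was the highest library at 53 of the 122 sites and cKO replicate 3 the lowest at 35. Over all 2300 sites cKO replicate 1 was most often the highest library (794 sites) and also most often the lowest (560 sites). There cKO replicate 3 was the highest at 379 sites and the lowest at 325. Spearman's rho between 2 libraries over the 122 sites was 0.247 to 0.404 within cKO and 0.679 to 0.828 within WT. Between a cKO and a WT library it was 0.245 to 0.384 for cKO replicate 1, 0.702 to 0.776 for cKO replicate 2 and 0.225 to 0.454 for cKO replicate 3. Over all 2300 sites rho was 0.682 to 0.799 within cKO and 0.877 to 0.889 within WT. No allowance for depth was made in these values. These are descriptions across sites that share libraries and reads. The variance of read starts relative to binomial counting had a median of 2.21 among cKO libraries and 1.38 among WT libraries over the 122 sites. It allows for counting error at each library's depth and for no other effect of depth.

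Site position within a gene went with small differences in level. In the 5' part, when each mRNA was cut in 3 equal parts, the median site mean was 1.66% in cKO and 1.54% in WT (795 sites), in the middle part 1.56% in cKO and 1.43% in WT (781 sites), and in the 3' part 1.37% in cKO and 1.27% in WT (712 sites). Codon positions 1, 2 and 3 held 708, 765 and 815 sites, of which 42, 39 and 41 had a mean of at least 5%. A listed C directly beside the site was found for 1089 of the 2300 sites (47.3%), for 80 of the 122 sites of at least 5% (65.6%) and for 9 of the 10 highest. These features were looked at after the ratios were known and are given without a test.

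HAC-seq coverage of the plus-strand mitochondrial mRNAs was lower in the cKO libraries than in the WT libraries for most genes, although no gene passed the main test. For each gene the mean coverage over its sites was scaled between libraries by TMM and compared by edgeR's quasi-likelihood test over 7256 genes. All 13 mRNAs had a log2 fold change below 0, with a median of -0.69 against -0.01 for all genes. None (0) was called at a Benjamini-Hochberg adjusted p under 0.05, against 0% of all genes called lower and 0.0276% called higher. At an unadjusted p under 0.05, 10 of the 13 were lower (5.32% of all genes) and 0 higher, and in 11 of the 13 the cKO libraries lay entirely below the WT libraries (6.59% of all genes). In 0 did they lie entirely above (5.13% of all genes). In bulk samples fewer transcripts per cell, a changed mix of cells and technical differences between libraries cannot be told apart. The 13 mRNAs share precursors, so they are not 13 separate observations.

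By fold change, mt-Nd4, mt-Nd2 and mt-Nd4l of complex I had the lowest cKO coverage relative to WT, without a test between genes. mt-Nd4 had a scaled coverage of 415, 891 and 835 reads per site in cKO and 1378, 1232, 1157 and 1416 in WT, a log2 fold change of -0.86 (SE 0.236, edgeR adjusted p = 0.314). mt-Nd2 had 306, 746 and 735 in cKO and 1165, 991, 941 and 1214 in WT (-0.85, SE 0.272). The groups did not overlap for either gene, and cKO replicate 1 was far below the other 2 cKO libraries.

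mt-Nd4l, translated from the same mRNA as mt-Nd4, averaged 532 ± 180 in cKO and 946 ± 51.5 in WT (-0.83, SE 0.213), and mt-Nd3 averaged 391 ± 101 in cKO and 598 ± 63.4 in WT (-0.61, SE 0.177; SD, n = 3 and n = 4). mt-Nd1 and mt-Nd5 had log2 fold changes of -0.76 (SE 0.276) and -0.69 (SE 0.191). mt-Cytb of complex III had 527, 1058 and 934 in cKO and 1601, 1352, 1316 and 1538 in WT (-0.79, SE 0.217), with no overlap.

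Among the ATP synthase mRNAs, mt-Atp8 had 628, 1477 and 1416 in cKO and 2102, 1810, 1725 and 1971 in WT (-0.70, SE 0.259), and mt-Atp6, on the same mRNA, had a log2 fold change of -0.65 (SE 0.256). The mRNAs of cytochrome c oxidase had the smallest fold changes of the plus-strand genes. mt-Co2 had 2783, 4465 and 4165 in cKO and 5481, 4904, 4668 and 5070 in WT (-0.40, SE 0.173). mt-Co3 had a log2 fold change of -0.38 (SE 0.173). mt-Co1 had 1680, 2691 and 2974 in cKO and 3134, 2970, 3124 and 3221 in WT (-0.35, SE 0.186), the only plus-strand gene whose groups overlapped, since cKO replicate 3 was just above WT replicate 2. Adjusted p values of the 12 plus-strand genes in edgeR ran from 0.314 to 0.486.

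mt-Nd6, on the minus strand, had 922, 866 and 733 in cKO and 812, 968, 719 and 1002 in WT, with overlapping groups and a log2 fold change of -0.06 (SE 0.150, edgeR adjusted p = 0.898) that turned positive under some settings (0.0391 without cKO replicate 3). The ratio of plus-strand mRNA coverage to mt-Nd6 coverage was 0.918, 1.76 and 2.06 in cKO and 2.45, 1.86, 2.46 and 1.98 in WT; only cKO replicates 1 and 2 lay below all WT libraries. The difference in fold change between the strands was not tested. The mitochondrial ribosomal RNAs mt-Rnr1 and mt-Rnr2, from the same strand as the other mRNAs, had log2 fold changes of -0.16 (SE 0.292) and -0.15 (SE 0.251). mt-Rnr1 had 15406, 33613 and 46302 in cKO and 37514, 32999, 36834 and 34773 in WT. In both, cKO replicate 1 was the lowest library and cKO replicate 3 the highest. The ratio of ribosomal RNA to plus-strand mRNA coverage was 21.4, 23.1 and 31.9 in cKO and 20.2, 19.8, 21.8 and 18.2 in WT. By that ratio cKO replicate 1 lay within the WT range.

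**Figure D5:**
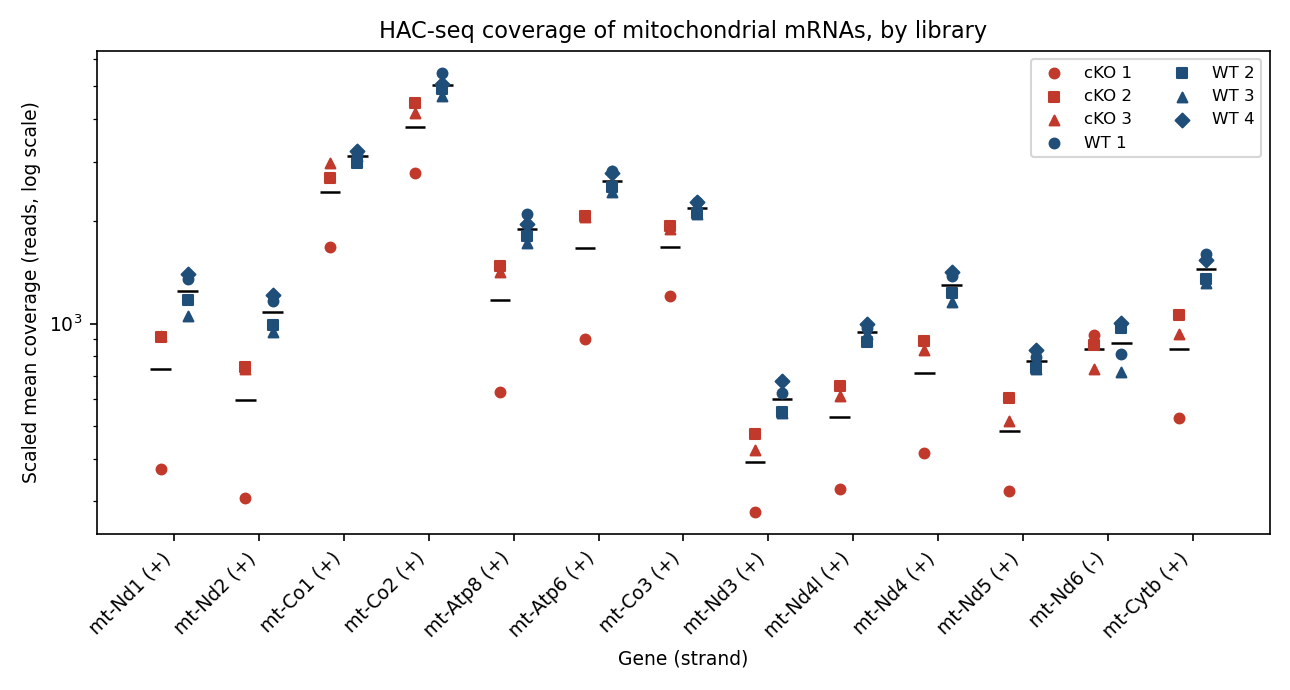
Mean HAC-seq coverage of each mitochondrial mRNA over its C sites after TMM scaling (reads per site, log scale) in each library, cKO in red left of WT in blue, with short lines for group means (n = 3 cKO, n = 4 WT) and the strand in brackets. The cKO libraries lie below the WT libraries in 11 genes, cKO replicate 1 (red circle) is lowest in all 12 plus-strand genes, and mt-Nd6 overlaps.

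The size of the coverage difference rested in part on cKO replicate 1. That library was the lowest of the 7 in all 12 plus-strand genes, and mitochondrial mRNA sites held 0.993%, 1.93% and 1.5% of all site coverage in cKO and 2.51%, 2.33%, 2.27% and 2.70% in WT. Without it the median log2 fold change over the 13 genes was -0.42, with 13 of 13 below 0, 9 with an unadjusted p under 0.05 (4.41% of all genes in that fit), and edgeR called 0. DESeq2 on the same coverage called 7 of the 13 lower (mt-Nd1, mt-Nd2, mt-Atp8, mt-Nd4l, mt-Nd4, mt-Nd5 and mt-Cytb, adjusted p = 0.00584 to 0.0376), against 0.165% of all genes called lower. The share of site coverage on the whole mitochondrial chromosome moved with this result, at 4.66%, 9.56% and 9.69% in cKO and 11.1%, 10.2%, 10.8% and 11.1% in WT; its part in the result was not tested.

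The RNA-seq libraries, with totals of 11830839 to 15766429 counts in cKO and 15096888 to 18863781 in WT, measured 7 of the 13 mRNAs. mt-Co2, mt-Atp8, mt-Atp6, mt-Co3, mt-Nd3 and mt-Nd4l had 0 to 2 counts in every library and were not tested, although each had HAC-seq reads in all 7 libraries. All 7 measured mRNAs had a log2 fold change below 0 with a median of -0.08, against -0.000996 over the 13105 genes tested. None (0) was called by edgeR, as for 0% of all genes in either direction, and 1, mt-Cytb, was lower at an unadjusted p under 0.05 (3.28% of all genes).

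mt-Cytb ran from 7806 to 10861 CPM in cKO, with a median of 8580, and from 8513 to 11720 CPM in WT, with a median of 9965 (log2 fold change -0.08, SE 0.0373, edgeR adjusted p = 0.806). mt-Nd2 ran from 618 to 839 CPM in cKO, with a median of 778, and from 792 to 854 CPM in WT, with a median of 828 (-0.10, SE 0.0580). mt-Nd4 averaged 819 ± 141 CPM in cKO and 899 ± 118 CPM in WT (SD, n = 6 each; -0.08, SE 0.0610). The groups overlapped for all 3, and the HAC-seq log2 fold changes of the same genes were -0.79, -0.85 and -0.86.

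mt-Nd1 and mt-Nd5 had RNA-seq log2 fold changes of -0.06 (SE 0.0435) and -0.05 (SE 0.0714), and mt-Co1 of -0.03 (SE 0.0593). mt-Nd6 averaged 320 ± 39.5 CPM in cKO and 343 ± 24.6 CPM in WT (SD, n = 6 each; -0.08, SE 0.0680). Within the 2 sets of libraries that the sample names give, the median over the 7 genes was 0.0013 in set 1 (2 cKO and 3 WT libraries) and -0.14 in set 2 (4 cKO and 3 WT libraries). The interaction of genotype and set was not called for any of the 7 (edgeR adjusted p = 1.00 for each). Its unadjusted p in edgeR was 0.00263 for mt-Co1, 0.0438 for mt-Nd6 and above 0.05 for the others. The log2 fold changes in sets 1 and 2 were 0.17 and -0.17 for mt-Co1 and 0.079 and -0.20 for mt-Nd6. RNA-seq and HAC-seq used different libraries and scaling, and their fold changes were not tested against each other.

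Nuclear genes for the processing, stability and translation of mitochondrial mRNAs were measured in the same RNA-seq libraries. Of 34 such genes 26 had a log2 fold change above 0 and 8 below 0, with a median of 0.04, and 0 passed the threshold (smallest adjusted p in edgeR = 0.803). Hsd17b10, a subunit of the RNase P complex that cuts tRNAs out of mitochondrial transcripts, averaged 136 ± 12.1 CPM in cKO and 157 ± 9.61 CPM in WT (-0.18, SE 0.0591). Pde12, a mitochondrial poly(A) exonuclease, averaged 8.67 ± 2.49 CPM in cKO and 6.17 ± 1.40 CPM in WT (0.39, SE 0.163). These 2 of the 34 had an unadjusted p under 0.05, 1 lower and 1 higher, close to the 3.28% of all genes lower and 2.86% higher at that level. Lrpprc, which stabilises mitochondrial mRNAs, averaged 44.1 ± 3.24 CPM in cKO and 43.2 ± 3.63 CPM in WT (SD, n = 6 each).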

How the data were processed

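HAC-seq and RNA-seq of cultured cKO and WT neural progenitors were analysed from the deposited tables. The submitters' processing notes name STAR 2.5.2a, Trimmomatic 0.32 and bcl2fastq 2.17.1.14, and the builds GRCm38.p6 (HAC-seq) and GRCm38 (RNA-seq). The authors deposited raw RNA-seq read counts per gene. Per the file headers, the HAC-seq table gives for each C site the coverage signal of read starts 1 base downstream, the count of all reads, their ratio as a fraction, and a p-value whose test is not given in the sources used here. Of 135582 entries 16692 were repeats. Recomputed fractions differed from the deposited ones by at most 5.55e-16. The number of sample columns left out was 0.

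Analyses used R 4.3.3, edgeR 4.0.16, limma 3.58.1 and DESeq2 1.42.0. Sites with coverage of at least 50 in every library and a mean ratio of at least 0.05 entered a quasi-binomial model (dispersions squeezed by limma and not below 1). Gene coverage (mean of at least 10, rounded) and RNA-seq counts (filterByExpr, library set as covariate) entered edgeR's quasi-likelihood test with TMM, all two-sided with Benjamini-Hochberg adjustment over the whole table. Coverage counts a read at every site that it spans. Scripts were tested on simulated data. Named sites were the 10 of highest mean ratio, the highest of each gene and the 5 of smallest p in each direction, 25 in all. That p was from the quasi-binomial model with the ratio minimum. Members and gene lists were chosen with earlier results of these data known. Alternatives varied filters, scaling, tool, library set, replicate block and single libraries. Replicate numbers were not taken as pairs.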

Additional observations from a re-analysis of the deposited data

Results flagged for a closer look

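In 69 groups of 4 or 6 libraries, 1 value lay far from the others of its group, fewer than the 1 in 20 that chance flags. The groups were HAC-seq WT mean ratios, named sites, gene coverages and coverage ratios, and RNA-seq levels in cKO and in WT. The 3 HAC-seq cKO libraries were not checked, so the count does not cover cKO replicates 1 and 3, which stood apart in the results above. The ratio at mt-Nd4l nucleotide 172 was 2.75% in WT replicate 3 and 5.43% to 5.91% in the other 3 WT libraries; the cKO libraries had 4.84%, 6.57% and 2.37%.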

How the results depend on the processing

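Among the planned and added settings, the count of mitochondrial mRNA sites called stayed at 0 for the test with a ratio minimum. With no ratio minimum and 1 library left out, a combination chosen after seeing the data, it ran from 0 to 12. The difference in mean ratio was 0.410 points with a ratio minimum of 0.05 and 0.0228 to 0.261 points with 1 library left out. The value of 0.0228 was without cKO replicate 1, over the 2347 sites that met the coverage minimum in the remaining libraries. DESeq2 called 7 genes for coverage where edgeR called 0; the cause was not tested. Leaving out 1 library turned the direction at mt-Co3 nucleotide 322 (-3.84 to 0.138 points), mt-Nd5 nucleotides 1316 (-6.91 to 0.840), 795 (-5.24 to 1.62) and 1317 (-1.34 to 1.23), mt-Atp6 nucleotide 348 (-0.0939 to 2.13), mt-Nd4l nucleotide 172 (-1.38 to 0.720) and mt-Nd6 nucleotide 316 (-0.961 to 0.842); with 6 libraries the exact permutation test cannot reach 0.05. It also turned the coverage of mt-Nd6 (log2 fold change -0.14 to 0.0391) and the RNA-seq level of mt-Nd5 (-0.11 to 0.0032). In library set 1 alone RNA-seq log2 fold changes were 0.17 for mt-Co1, 0.0013 for mt-Nd4, 0.053 for mt-Nd5 and 0.079 for mt-Nd6.

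Replicate numbers were not taken as pairs. Deviations of same-numbered HAC-seq libraries correlated at -0.0106 to 0.0151 for ratios and 0.0475 to 0.202 for coverage, and those of RNA-seq libraries at -0.36 to 0.62. Library set was not removed from the RNA-seq deviations, and -0.36 was replicate 3, whose cKO and WT libraries were in different sets. The correlations therefore do not decide whether samples were paired. With the replicate block the counts called were 0 for sites, 0 for gene coverage and 0 for RNA-seq (mt-Nd6 coverage: log2 fold change 0.0156).

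Coverage of the plus-strand mRNAs was thinnest in cKO replicate 1, where a ratio, high or low, rests on fewer reads.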
